A study of Homo sapiens with 8 samples.

Results

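The lysosome and autophagy genes are 53 genes chosen by symbol: *TFEB* and *TFE3* with the FLCN, FNIP and Rag genes that act on them (7 genes), membrane proteins of the lysosome (6), its hydrolases and other proteins of its lumen (15), subunits of the vacuolar proton pump, the V-ATPase (7), and genes that build the autophagosome (18). All 53 were found among the 58051 genes listed, and all 53 were among the 17671 genes with enough counts to be tested. RNA was measured in 8 libraries from A375, a human melanoma cell line. Each of 4 single-cell-cloned lines, WT1 to WT4, was kept for 12 h in DMEM with 10% FBS (serum) or in DMEM alone (serum-free), so each condition holds 4 libraries and each line is 1 clone. No line carries an engineered change that the labels name. The deposited counts for WT4 carry another name, and its identity rests on the labels. The series asked how melanoma cells respond in transcription to the loss of serum. The labels do not describe repeat cultures of a line, so the p-values measure the spread among these libraries.

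The lysosome is an acidic compartment where hydrolases break down proteins, lipids, glycans and nucleic acids, and the V-ATPase pumps in the protons that the hydrolases need. Autophagy delivers parts of the cell's own cytoplasm to it: the ULK1 kinase complex and the class III PI3-kinase complex start a membrane, the WIPI and ATG2 proteins help it grow, the ATG12-ATG5-ATG16L1 complex attaches LC3 and GABARAP proteins to it, and receptors such as p62 load it with cargo. On the surface of the lysosome the kinase complex mTORC1 receives signals of amino acids through Rag GTPases and folliculin and of growth factors through AKT, the TSC complex and RHEB, and when it is active it keeps the transcription factors TFEB and TFE3 in the cytoplasm. In the nucleus these factors bind the CLEAR element, an E-box (CACGTG) motif near the starts of many lysosomal and autophagy genes.

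Libraries held 29759279 to 67101005 reads on genes with serum and 37847737 to 73341551 without. Reads aligned to several places were 22.7% of the counted total in the serum library of WT1 and 16.8% in that of WT2, against 5.73% to 10.1% in the other 6 libraries. RNA was depleted of ribosomal RNA rather than selected by poly(A). Of the markers of melanocytes, *MITF* was at 30.1 to 44.2 CPM (a gene's count scaled to the library's size with TMM) while *SOX10* was at 0 in every library and *PMEL*, *MLANA*, *TYR*, *TYRP1* and *DCT* reached at most 2.90 CPM. Of 4 markers of undifferentiated melanoma, *AXL* was at 309 to 656 CPM, *NGFR* at 24.1 to 199, *EGFR* at 8.98 to 36.3 and *SOX9* at 0 to 0.640. The 4 immune markers summed to 0.304 to 0.810 CPM with serum and 0.353 to 0.853 without.

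Without serum, 14 of the 53 genes rose and 5 fell, while 34 did not pass the test (an adjusted p under 0.05 by the quasi-likelihood test of edgeR, with the Benjamini-Hochberg method over all 17671 genes). The rises were 7 hydrolases or lumenal proteins (*CTSB*, *GAA*, *HEXA*, *NEU1*, *NAGLU*, *GRN*, *TPP1*) and 7 autophagosome genes (*ULK1*, *ULK2*, *ATG2A*, *WIPI1*, *WIPI2*, *UVRAG*, *GABARAPL1*). The falls were 1 hydrolase (*GLA*), 2 pump subunits (*ATP6V0E1*, *ATP6V1C1*) and 2 genes of the conjugation machinery (*ATG5*, *ATG12*). None of the 7 control genes and none of the 6 membrane proteins passed. In bulk RNA a change per cell and a change in the mix of cells cannot be told apart. Higher calls were 26.4% of the 53, against 11.1% of all tested genes, and lower calls were 9.43%, against 14.0%. In all, 25.1% of tested genes were called. The log2 fold changes of the 53 ran from -0.56 (*ATG5*) to 1.01 (*ULK1*) with a median of 0.15, beside a median of 0.03 for all tested genes. In 27 of the 53 the serum-free library was above the serum library in all 4 lines, and in 9 it was below in all 4 (50.9% and 17.0%, beside 28.8% and 26.6% of all tested genes). The 4 serum-free libraries lay wholly above the 4 serum libraries for 13 of the 53 and wholly below for 4, where 12.6% and 15.0% of all tested genes did so.

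**Figure D1:**
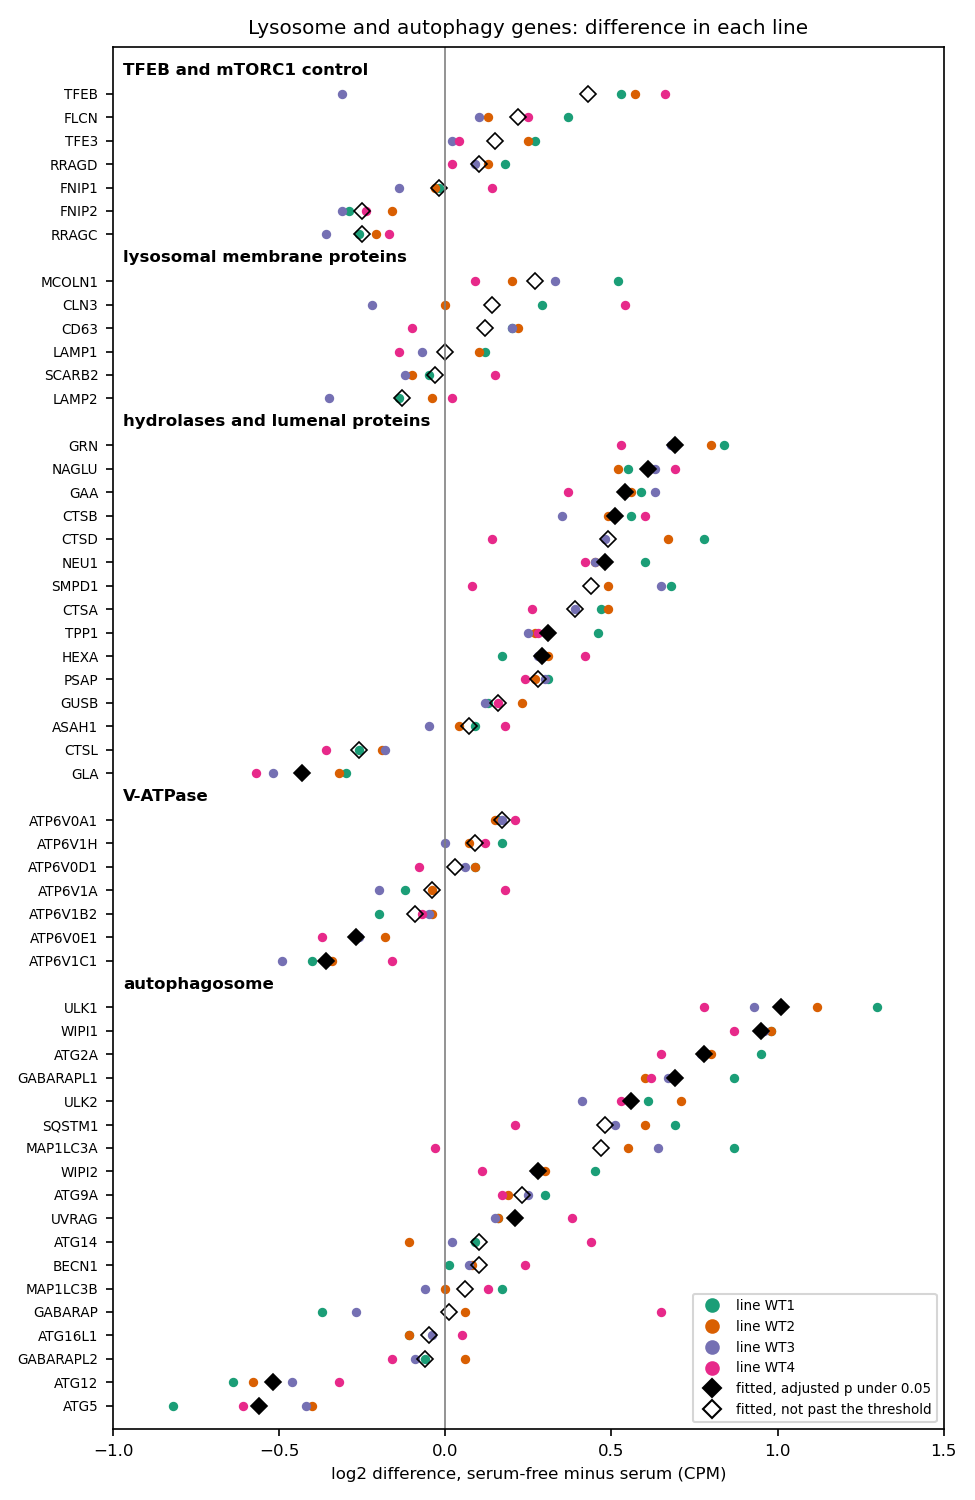
Log2 difference in CPM, serum-free minus serum, for each of the 53 genes, grouped by role. Coloured points are the 4 lines and diamonds the value fitted over all of them, filled where the adjusted p was under 0.05: filled diamonds sit to the right for 7 hydrolases or lumenal proteins and 7 autophagosome genes, and to the left for *GLA*, *ATP6V0E1*, *ATP6V1C1*, *ATG5* and *ATG12*.

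The same-numbered libraries come from the same line, and with the line as a block in the fit 25 of the 53 rose and 8 fell, where 45.7% of all tested genes were called (23.2% higher and 22.4% lower). All 14 rises and all 5 falls were called there too. The blocked fit added *FLCN*, *MCOLN1*, *CTSA*, *CTSD*, *GUSB*, *SMPD1*, *PSAP*, *ATP6V0A1*, *SQSTM1*, *MAP1LC3A* and *ATG9A* to the rises and *FNIP2*, *RRAGC* and *CTSL* to the falls. Over all 23 alternatives the adjusted p of these 14 ran from 7.42e-06 (*SQSTM1*, by edgeR with the block and GC correction) to 0.844 (*SMPD1*). The unblocked counts moved with single libraries. The 14 rises became 7, 7, 8 and 20 without the serum library of WT1, WT2, WT3 or WT4. They became 9, 9, 8 and 8 without the serum-free library of WT1, WT2, WT3 or WT4. The share of all tested genes that rose was 11.1% with every library. It was 15.6% without the serum library of WT4, and 6.27% to 8.63% in the other fits without 1 library. The 5 falls became 3 without the serum library of WT1, of WT2 or of WT3, where 9.29%, 10.2% and 9.47% of all tested genes fell. Leaving out 1 library moved none of the 19 called values by over 1.5 times, and it did so for 19 of the other 34, of which those at or above 0.20 in size were *TFEB*, *CTSL*, *SMPD1* and *PSAP*. With WT3 and WT4 only, the lines whose serum libraries had the lower shares of multiply aligned reads, 0 of the 53 passed in edgeR's test (at an unadjusted p under 0.05, 7 were higher and 3 lower) and 14 genes passed of all those tested, while the median log2 fold change of the 53 was 0.16 beside 0.03 for all genes. The 5 falling genes had a median GC content of 39.7% and the 14 rising genes 51.5%, beside 42.8% and 54.3% for all genes that fell and rose. In a fit corrected for GC content, 18 of the 53 rose and 2 fell, where 13.2% and 13.5% of all tested genes did. With both the correction and the block 27 rose and 6 fell, where 25.8% and 20.9% of all tested genes did. Against the block alone, this last fit lost *FLCN*, *FNIP2*, *RRAGC*, *MCOLN1*, *GUSB*, *MAP1LC3A* and *ATG9A* and gained *FNIP1*, *RRAGD*, *LAMP2*, *ASAH1*, *ATP6V1A*, *ATP6V1H* and *BECN1* as rises. Among the 19 called genes it kept every call and made the change over 1.5 times smaller for *GAA* (0.31), *NAGLU* (0.38), *ATP6V0E1* (-0.17), *ATP6V1C1* (-0.17), *ATG5* (-0.36) and *ATG12* (-0.26). Upper-quartile scaling gave 18 rises and 4 falls, beside 14.2% and 10.4% of all tested genes. Of the 14 genes that the block added, some were called without it in other fits of all 8 libraries: *CTSA* and *CTSD* in 6 of 8 such alternatives, *FLCN* in 4, and *FNIP2* and *MCOLN1* in 1 each. Each of the 19 called genes kept its direction in all 23 alternative fits.

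Levels per length spanned a wide range within the group. In RPKM (the same count divided by the length of the gene's merged exons) with serum, *PSAP*, which encodes the precursor of the saposins that help hydrolases reach their lipids, was at 121 ± 20.6 (SD, n = 4) and *CD63*, a tetraspanin of late endosomes and lysosomes, at 113 ± 13.2, which ranked them 294 and 324 among 17425 genes with a length. The difference between these neighbours was smaller than the spread of either. *LAMP1*, an abundant glycoprotein of the lysosomal membrane, followed at 45.5 ± 5.23 and *SQSTM1*, which encodes the cargo receptor p62, at 40.7 ± 12.3, again less apart than their spread. With the length of the longest transcript in place of merged exons *CD63* was at 222, *PSAP* at 138 and *SQSTM1* at 108 RPKM, so the order at the top depends on the length used. The pump subunits lay between 4.53 (*ATP6V0A1*) and 29.8 (*ATP6V0E1*) RPKM. At the bottom were *TFEB* at 0.223 ± 0.0312, *GABARAP* at 0.148 ± 0.0309 and *CLN3* at 0.0891 ± 0.0163 RPKM. The last pair share 35.4% and 25.3% of their exon bases with a gene on the same strand that runs across them. Reads in shared exons may have been counted for neither gene, so the levels and changes of this pair are uncertain.

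**Figure D2:**
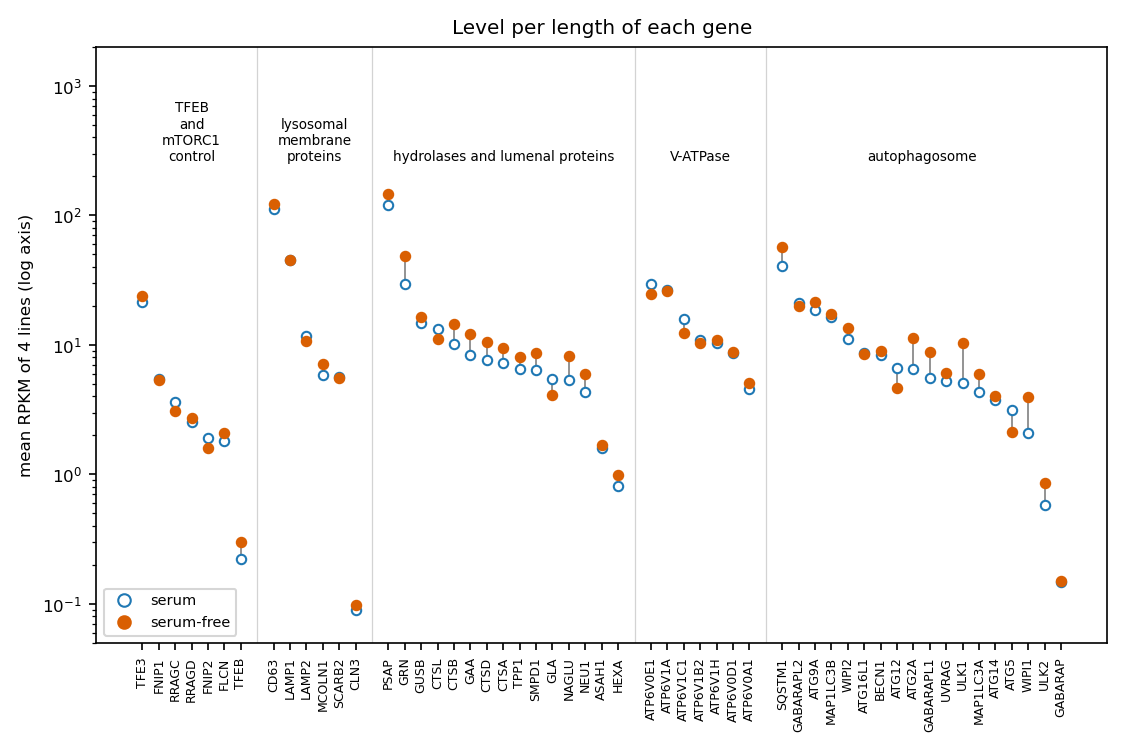
Mean RPKM of the 4 lines with serum (open) and without (filled) for each gene, on a log axis, ordered by the level with serum within each role. *PSAP* and *CD63* stand above 100 RPKM, and *HEXA*, *ULK2*, *TFEB*, *GABARAP* and *CLN3* stand below 1 in both conditions.

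Promoter sequence, 250 bases before to 50 bases after a start of the gene, was at hand in the RefSeq table of GRCh38.p14 for 39 of the 53 genes. Where the table lists several starts for a gene, the first listed was used, and for 6 of the 39 (*TFEB*, *FLCN*, *CD63*, *SCARB2*, *ATG5* and *BECN1*) it lies over 100 bases inside the gene's outermost start. *LAMP2*, *NAGLU*, *ATP6V1B2*, *ATP6V1A*, *ATP6V1C1*, *HEXA*, *CTSB*, *RRAGD*, *ASAH1*, *MAP1LC3A*, *ATP6V1H*, *UVRAG*, *PSAP* and *ATP6V0E1* had none. The E-box CACGTG, searched on both strands, was in 12 of these 39 (30.8%) and in 7.43% of all 27305 promoters of the table. The 27305 were not limited to genes tested here, whereas all 39 are of tested genes. Its longer form TCACGTGA, which holds the E-box, was in 6 of the 39 (15.4%) and in 1.04% of all. The 10-base CLEAR palindrome was in 2 of the 39 (5.13%), *GAA* and *MCOLN1*, and in 0.381% of all. GTAAACA, the core that FOXO factors bind and the reverse complement of TGTTTAC, was in 1 (*CTSL*) of the 39, or 2.56%, and in 3.41% of all promoters. The sites are shown because they let the sequence be read beside the expression values. Each line gives 30 bases from 5′ to 3′ on the strand of the gene, with the 8-base motif in capitals.
GAA, chr17:80101493-80101522, plus strand: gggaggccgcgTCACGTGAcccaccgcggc
GAA, chr17:80101538-80101567, plus strand: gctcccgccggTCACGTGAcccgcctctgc
MCOLN1, chr19:7522571-7522600, plus strand: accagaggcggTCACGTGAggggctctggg
MCOLN1, chr19:7522598-7522627, plus strand: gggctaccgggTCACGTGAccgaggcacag
CTSA, chr20:45891298-45891327, plus strand: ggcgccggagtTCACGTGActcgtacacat
LAMP1, chr13:113297199-113297228, plus strand: gacccgcgggaTCACGTGAcgcccgggcgc
LAMP1, chr13:113297226-113297255, plus strand: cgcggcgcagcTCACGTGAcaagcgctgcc
ATP6V0D1, chr16:67481199-67481228, minus strand: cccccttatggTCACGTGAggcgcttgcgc
CLN3, chr16:28492058-28492087, minus strand: cgcgggtgctgTCACGTGAtccgacaaacg

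Of the 6 genes with the 8-base motif, *GAA* rose, and *MCOLN1* and *CTSA* rose with the line as a block, while *LAMP1*, *ATP6V0D1* and *CLN3* passed in neither fit. *LAMP1* held the E-box at 6 places, more than any other of the 39 promoters, and its log2 fold change was 0.00. The other 6 promoters with CACGTG were those of *NEU1*, which rose, *CTSD*, which rose in the blocked fit, *RRAGC*, which fell in the blocked fit, and *FNIP1*, *CD63* (at a start 1032 bases inside the gene's outermost one) and *ATG14*, which passed in neither. With the correction for GC content added to the block, *MCOLN1* and *RRAGC* were no longer called and *FNIP1* rose. The sites of *NEU1* and *CTSD* are given with the 6-base core in capitals.
NEU1, chr6:31862930-31862959, minus strand: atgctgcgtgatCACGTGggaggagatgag
CTSD, chr11:1763957-1763986, minus strand: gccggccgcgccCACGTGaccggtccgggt
A match describes the letters of a window and does not show that a factor binds there.

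None of the 7 control genes passed edgeR's test without the block, where 1 was higher and 2 were lower at an unadjusted p under 0.05. DESeq2 called 1 higher and 1 lower, where it called 13.3% and 16.8% of all tested genes. With limma's voom 0 were called, beside 12.2% higher and 14.4% lower of all tested genes. *TFEB* itself was at 1.22, 1.52, 1.54 and 1.73 CPM in WT1, WT2, WT3 and WT4 with serum and at 1.78, 2.28, 1.23 and 2.75 without. It was higher in 3 lines and lower in WT3, these levels rest on 46 to 174 counts per library, and the fitted log2 fold change was 0.43 ± 0.26 (SE, edgeR's adjusted p = 0.259). This value of *TFEB* was 0.24 without the serum-free library of WT4, and 0.21 with the block and the correction for GC content. It was 0.59 without the serum-free library of WT3, and it ran from 0.21 to 0.60 over all 23 alternatives. *TFE3*, its paralogue, was far more abundant, at 83.8, 92.7, 91.7 and 93.3 CPM with serum and 101, 111, 93.1 and 96.3 without. The serum and serum-free ranges of *TFE3* overlapped slightly, and its difference of 0.15 ± 0.07 did not pass (edgeR's adjusted p = 0.159). With GC content corrected for, it was 0.01 both without the block (edgeR's adjusted p = 0.963) and with it (adjusted p = 0.935). Compared per length, *TFE3* was at 21.5 and *TFEB* at 0.223 RPKM with serum.

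Folliculin and its partners act as the GTPase-activating complex for RagC and RagD, the step that lets mTORC1 hold TFEB and TFE3 back. *FLCN* was at 16.9, 17.9, 18.4 and 17.3 CPM with serum and 21.9, 19.6, 19.8 and 20.5 without, so its groups did not overlap. Its log2 fold change was 0.22 ± 0.08 without the block (edgeR's adjusted p = 0.0689, and 0.0262 to 0.292 over 8 unblocked alternatives, with 4 calls) and 0.21 ± 0.08 with it (adjusted p = 0.0376), and it was 0.13 with the block and the correction for GC content (adjusted p = 0.170). The partner *FNIP2* went the other way, at 20.1, 19.5, 23.8 and 20.0 CPM with serum and 16.4, 17.5, 19.2 and 16.9 without. Its groups did not overlap either, with -0.25 ± 0.09 in the unblocked fit (edgeR's adjusted p = 0.0765) and a fall in the blocked fit (adjusted p = 0.0133) that was not called once GC content was corrected for (-0.15, adjusted p = 0.0835). For *FNIP1* the values were 43.2, 41.2, 49.2 and 38.8 CPM with serum and 42.6, 40.4, 44.7 and 42.7 without, a log2 difference of -0.02 ± 0.08 (edgeR's adjusted p = 0.900), which turned to 0.18 with the block and the correction for GC content (adjusted p = 0.00619). *RRAGC*, 1 of the Rag GTPases, was at 20.8, 19.0, 17.3 and 17.4 CPM with serum and 17.4, 16.5, 13.5 and 15.4 without. The library without serum was below that with serum in every line, and *RRAGC* passed in the blocked fit at -0.25 ± 0.08 (edgeR's adjusted p = 0.0172) but neither without the block (adjusted p = 0.118) nor with GC content corrected for as well (-0.16, adjusted p = 0.0707). *RRAGC* shares 23.1% of its exon bases with a non-coding gene on its strand. *RRAGD*, the Rag gene known as a TFEB target, was at 12.4, 12.5, 11.9 and 14.6 CPM with serum and 14.0, 13.7, 12.7 and 14.8 without, higher in all 4 lines by a fitted 0.10 ± 0.10 (edgeR's adjusted p = 0.485), and it rose by 0.24 with the block and the correction for GC content (adjusted p = 0.0216).

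Among the 6 lysosomal membrane proteins no change passed the unblocked test of edgeR, DESeq2 or limma's voom, although 1 was higher at an unadjusted p under 0.05, and their median log2 fold change was 0.06. *LAMP1* was at 225, 257, 264 and 299 CPM with serum and 245, 276, 252 and 271 without. It was higher in WT1 and WT2 and lower in WT3 and WT4, and the fitted difference was 0.00 ± 0.09 (edgeR's adjusted p = 0.984). *LAMP2*, the other major membrane glycoprotein, with a splice form that serves chaperone-mediated autophagy, was at 131, 124, 134 and 110 CPM with serum and 118, 121, 105 and 111 without. Its ranges overlapped, and the difference of -0.13 ± 0.08 (edgeR's adjusted p = 0.263) became 0.12 (adjusted p = 0.0358, from a range of 0.0358 to 0.657 over the alternatives) with the block and the correction for GC content. *MCOLN1* encodes the calcium channel TRPML1, and was at 19.0, 22.6, 24.2 and 26.9 CPM with serum and 27.2, 25.9, 30.4 and 28.6 without. It was higher in every line, by 0.27 ± 0.11 in the unblocked fit (edgeR's adjusted p = 0.0946) and by 0.28 ± 0.08 in the blocked fit, where it rose (adjusted p = 0.00976). With GC content corrected for as well, the difference of *MCOLN1* was 0.09 and was not called (edgeR's adjusted p = 0.238). The tetraspanin *CD63* (0.12), *SCARB2*, the receptor that carries glucocerebrosidase to the lysosome (-0.03), and *CLN3*, mutated in juvenile Batten disease (0.14), did not pass in either fit.

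Of the 15 hydrolases and lumenal proteins 7 rose and 1 fell (46.7% and 6.67%, beside 11.1% and 14.0% of all tested genes), and 12 were higher and 2 lower in all 4 lines (80.0% and 13.3%, beside 28.8% and 26.6% of all tested genes), with a median log2 fold change of 0.39. *GRN* (ENSG00000030582, chr17:44345302-44353106 in GRCh38) encodes progranulin, which is cut into granulins in the lysosome. It was at 84.8, 93.1, 103 and 139 CPM with serum and 151, 162, 165 and 201 without. Every serum-free library lay above every serum library, and the fitted rise was 0.69 ± 0.15, or 1.62-fold (edgeR's adjusted p = 0.0115). *NAGLU*, the alpha-N-acetylglucosaminidase that cuts heparan sulfate, was at 14.5, 15.9, 13.9 and 18.6 CPM with serum and 21.3, 22.8, 21.6 and 29.9 without. The groups were apart, with WT4 highest in both, and *NAGLU* rose by 0.61 ± 0.13 (edgeR's adjusted p = 0.0108). It shares 12.9% of its exon bases with a non-coding gene on its strand. The acid alpha-glucosidase *GAA* (ENSG00000171298, chr17:80101581-80119881), which degrades glycogen, was at 36.5, 41.1, 46.3 and 51.2 CPM with serum and 54.9, 60.4, 71.9 and 66.4 without, also without overlap. The rise of *GAA* was 0.54 ± 0.12 (edgeR's adjusted p = 0.0103).

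*TPP1*, a tripeptidyl peptidase, was at 36.9, 42.5, 45.4 and 43.9 CPM with serum and 50.6, 51.4, 54.0 and 53.1 without. Its groups did not overlap, and it rose by 0.31 ± 0.08 (edgeR's adjusted p = 0.0155). *CTSB*, the cysteine protease cathepsin B, was at 95.7, 101, 103 and 130 CPM with serum and 141, 142, 132 and 197 without. The lowest serum-free value of *CTSB*, in WT3, stood just above its highest serum value, in WT4, and *CTSB* rose by 0.51 ± 0.14 (edgeR's adjusted p = 0.0265). The sialidase *NEU1* rose by 0.48 ± 0.15 (edgeR's adjusted p = 0.0454), from 16.5 to 26.4 CPM with serum to 25.1 to 35.3 without, ranges that overlapped. *HEXA*, the alpha subunit of beta-hexosaminidase, rose by 0.29 ± 0.09 (edgeR's adjusted p = 0.0405), from 12.0 to 14.0 CPM to 14.8 to 16.6. It shares 13.2% of its exon bases with a non-coding gene on the opposite strand. In the 12 fits that left out 1 library or 1 line the rises of *GRN* and *GAA* were called in 10, of *NAGLU* and *TPP1* in 9, of *CTSB* in 5, of *NEU1* in 2 and of *HEXA* in 0. Those fits were all without the block. With the block and all 8 libraries, edgeR's adjusted p was 8.60e-06 for *CTSB*, 6.58e-05 for *NEU1* and 0.00981 for *HEXA*.

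The aspartic protease cathepsin D and the cysteine protease cathepsin L did not move together. *CTSD* was at 32.5, 41.1, 40.2 and 58.9 CPM with serum and 55.6, 65.5, 55.9 and 64.8 without. The serum library of WT4 stood above the serum-free libraries of WT1 and WT3, and the difference of 0.49 ± 0.16 did not pass without the block (edgeR's adjusted p = 0.0539) but was called in 6 of 8 unblocked alternatives (adjusted p = 0.0223 to 0.101) and with the block (0.51 ± 0.09, adjusted p = 2.16e-04, or 0.30 with GC content corrected for as well, adjusted p = 3.74e-04). *CTSD* shares 23.4% of its exon bases with a non-coding gene on the opposite strand and 22.9% with a gene on its own. *CTSL* was at 79.5, 69.9, 69.6 and 107 CPM with serum and 66.4, 61.2, 61.4 and 83.3 without. WT4 was the highest line in both conditions, *CTSL* was lower without serum in all 4 lines, and it fell in the blocked fit (-0.25 ± 0.06, edgeR's adjusted p = 0.00264) but not in the unblocked one (-0.26 ± 0.15, adjusted p = 0.254). Without the serum library of WT4 the unblocked value of *CTSL* was -0.10, and without the serum-free library of WT4 it was -0.37.

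*PSAP* was at 336, 331, 378 and 469 CPM with serum and 415, 398, 463 and 555 without. The serum value of WT4 exceeded the serum-free values of the other lines, so the groups overlapped although every line was higher without serum. The difference of 0.28 did not pass in the unblocked fit (SE 0.14, edgeR's adjusted p = 0.167) and passed in the blocked one (SE 0.05, adjusted p = 3.50e-04). Without the serum-free library of WT4 the unblocked value of *PSAP* was 0.17. Over the 23 alternatives it ran from 0.17 to 0.39, and 2 of 12 leave-out fits called it. *CTSA*, the protective protein that stabilises NEU1 and beta-galactosidase, was at 51.8 to 80.3 CPM with serum and 71.7 to 96.2 without, and showed 0.39 without the block (edgeR's adjusted p = 0.0633). It was called in 6 of 8 unblocked alternatives (adjusted p = 0.0401 to 0.0707, with edgeR, DESeq2 or limma's voom) and rose by 0.40 with the block (edgeR's adjusted p = 7.47e-05). The acid sphingomyelinase *SMPD1*, which spread from 10.9 to 27.0 CPM among the serum libraries, showed 0.44 (edgeR's adjusted p = 0.429) and rose by 0.47 in the blocked fit (adjusted p = 0.00107). Without the block, the value of *SMPD1* was 0.74 without the serum library of WT2 and 0.11 without its serum-free library. The beta-glucuronidase *GUSB* rose by 0.16 in the blocked fit (edgeR's adjusted p = 0.0321) but not without the block (adjusted p = 0.198) or with GC content corrected for as well (0.11, adjusted p = 0.0748). The acid ceramidase *ASAH1* was at 0.07 in both fits (edgeR's adjusted p = 0.653 and 0.479), and it rose by 0.29 with the block and the correction for GC content (adjusted p = 0.00106).

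The hydrolase that fell was *GLA* (ENSG00000102393, chrX:101397803-101407925), the alpha-galactosidase A that is deficient in Fabry disease. It was at 33.8, 33.1, 30.1 and 39.2 CPM with serum and 27.4, 26.4, 21.0 and 26.4 without. All 4 serum-free libraries were below all 4 serum libraries, and *GLA* fell by 0.43 on the log2 scale (SE 0.11, edgeR's adjusted p = 0.0194). *GLA* shares 9.0% of its exon bases with *RPL36A* on the opposite strand. The GLA log2 fold change was -0.34 with the correction for GC content and no block (edgeR's adjusted p = 0.0607) and -0.33 with block and correction (adjusted p = 6.50e-04), and its adjusted p ran from 2.06e-04 to 0.217 over the alternatives.

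**Figure D3:**
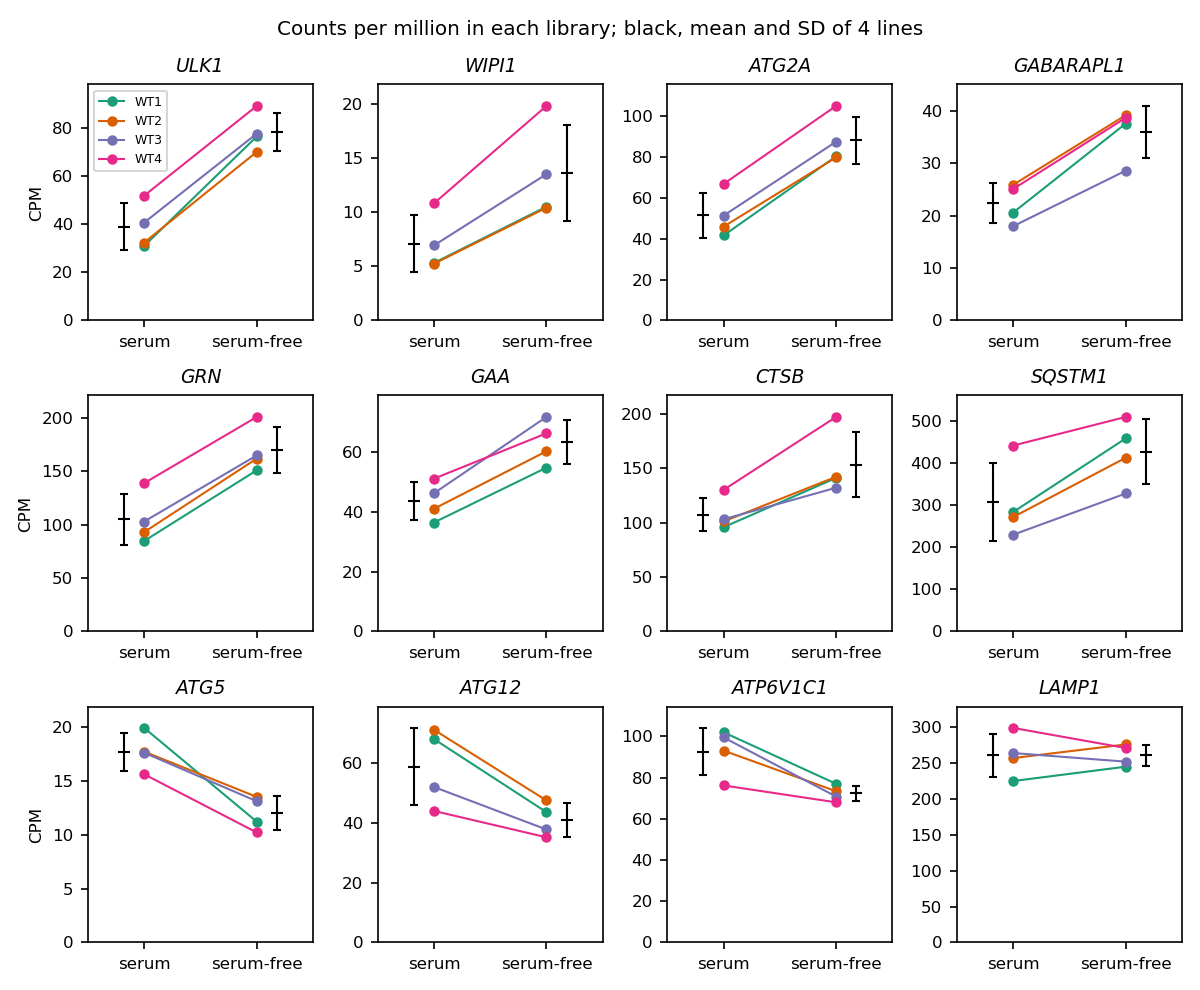
CPM in each library for 12 of the genes, with lines joining the serum and serum-free libraries of 1 clone and black bars giving the mean ± SD of 4 lines. *ULK1*, *WIPI1*, *ATG2A*, *GABARAPL1*, *GRN*, *GAA*, *CTSB* and *SQSTM1* slope up in every line, *ATG5*, *ATG12* and *ATP6V1C1* slope down in every line, and *LAMP1* slopes up in 2 and down in 2.

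For the V-ATPase, 0 of 7 subunits rose and 2 fell in edgeR's test, as in DESeq2 and limma's voom, where 11.1% and 14.0% of all tested genes rose and fell in edgeR's test. None of the 7 was higher at an unadjusted p under 0.05, and the median log2 fold change was -0.04. The balance depended on the correction for GC content, with which 0 rose and 1 fell without the block (beside 13.2% and 13.5% of all tested genes), 3 rose and 2 fell with it (beside 25.8% and 20.9%), and the median was 0.08 in both. With the block alone, 1 rose and 2 fell (beside 23.2% and 22.4%). The membrane subunit *ATP6V0E1* was at 49.1, 45.4, 46.5 and 50.9 CPM with serum and 40.8, 40.2, 38.9 and 39.4 without. The groups did not overlap, and it fell by 0.27 on the log2 scale (SE 0.06, edgeR's adjusted p = 0.0136). *ATP6V1C1*, a stalk subunit of the part that splits ATP, was at 102, 93.1, 99.5 and 76.2 CPM with serum and 77.0, 73.4, 70.8 and 68.0 without. The serum library of WT4 lay just under the serum-free library of WT1, and *ATP6V1C1* fell by 0.36 on the log2 scale (SE 0.09, edgeR's adjusted p = 0.0210). With the block and the correction for GC content both were still called, at -0.17 each (edgeR's adjusted p = 0.0184 for *ATP6V0E1* and 0.00290 for *ATP6V1C1*), and with the correction alone *ATP6V0E1* was not. Without 1 library or 1 line the fall of *ATP6V0E1* was called in 9 of 12 unblocked fits and that of *ATP6V1C1* in 6 of 12. With the block alone edgeR's adjusted p was 0.00244 for *ATP6V0E1* and 3.41e-04 for *ATP6V1C1*.

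The other 5 subunits of the pump did not pass without the block. *ATP6V1A*, the catalytic subunit, was at 171, 170, 169 and 164 CPM with serum and 157, 165, 147 and 187 without. It was lower in 3 lines and higher in WT4, and its difference of -0.04 ± 0.08 (edgeR's adjusted p = 0.755) became 0.12 (adjusted p = 0.0308, from a range of 0.0308 to 0.993 over the alternatives) with the block and the correction for GC content. *ATP6V1H*, a regulatory subunit, was at 49.5, 54.4, 54.5 and 52.2 CPM with serum and 55.7, 56.9, 54.5 and 56.8 without, a difference of 0.09 ± 0.06 (edgeR's adjusted p = 0.306) that was 0.12 and called with the block and the correction for GC content (adjusted p = 0.0474). *ATP6V0D1*, which joins the membrane and stalk parts, was at 63.7, 66.3, 69.8 and 81.6 CPM with serum and 67.6, 70.4, 72.6 and 77.3 without, with overlapping ranges (0.03 ± 0.09, edgeR's adjusted p = 0.806). *ATP6V0A1*, the membrane subunit that forms part of the proton path, rose by 0.17 in the blocked fit (edgeR's adjusted p = 0.0211) and by 0.15 with GC content corrected for as well (adjusted p = 0.0133), and did not pass without the block (adjusted p = 0.141). *ATP6V1B2*, which pairs with the catalytic subunit, was at -0.09 and passed in neither fit.

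Among the autophagosome genes 7 of 18 rose (38.9%, beside 11.1% of all tested genes) and 2 fell (11.1%, beside 14.0%), and the median log2 fold change was 0.22. The first kinase of the pathway, *ULK1* (ENSG00000177169, chr12:131894622-131923150), was at 31.0, 32.4, 40.7 and 51.9 CPM with serum and 76.5, 70.1, 77.7 and 89.2 without. The lowest serum-free value was above the highest serum value, and *ULK1* rose by 1.01 ± 0.16, or 2.01-fold (edgeR's adjusted p = 0.00317). Its rise was called in all 12 fits that left out 1 library or 1 line, which held for no other of the 19 called genes. The related kinase *ULK2* was scarcer, at 5.14 to 6.92 CPM with serum and 7.43 to 9.22 without, and rose by 0.56 ± 0.14 (edgeR's adjusted p = 0.0192).

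*WIPI1* and *WIPI2* encode proteins that bind the phosphoinositide PI3P on the growing membrane. *WIPI1* was at 5.30, 5.23, 6.92 and 10.8 CPM with serum and 10.5, 10.4, 13.5 and 19.8 without. Differences within lines were alike, from 0.87 in WT4 to 0.98 in WT1 and WT2 on the log2 scale, while the lines stood apart, so that the serum library of WT4 exceeded the serum-free libraries of WT1 and WT2. The fitted rise of *WIPI1* was 0.95 ± 0.29 without the block (edgeR's adjusted p = 0.0408). *WIPI1* shares 24.4% of its exon bases with *ARSG* on the opposite strand. *WIPI2*, which recruits the ATG16L1 complex, rose by 0.28 ± 0.09 (edgeR's adjusted p = 0.0408), from 87.0 to 113 CPM to 115 to 127, with no overlap. *ATG2A*, a lipid transfer protein that works with the WIPI proteins, was at 41.6, 45.9, 51.3 and 66.8 CPM with serum and 80.3, 79.8, 87.5 and 105 without. Its groups were apart, and it rose by 0.78 ± 0.15, or 1.72-fold (edgeR's adjusted p = 0.00629). The call was made in 11 of 12 leave-out fits for *ATG2A*, in 6 for *ULK2*, in 3 for *WIPI1* and in 2 for *WIPI2*. None of these leave-out fits held the line as a block. With the block and all 8 libraries, edgeR's adjusted p was 3.58e-07, 6.32e-04, 2.17e-06 and 0.00153 in the same order.

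Of the LC3 and GABARAP family, the proteins that are attached to the autophagosome membrane, *GABARAPL1* (ENSG00000139112, chr12:10212877-10223128) was the member that passed in the unblocked fit. It shares 8.1% of its exon bases with an antisense non-coding gene. It was at 20.6, 25.9, 18.0 and 25.1 CPM with serum and 37.6, 39.2, 28.6 and 38.7 without. WT3 was lowest in both groups, which did not overlap, and *GABARAPL1* rose by 0.69 ± 0.14, or 1.61-fold (edgeR's adjusted p = 0.00754), a call made in 11 of 12 leave-out fits. *GABARAPL2* was at 62.2, 57.3, 66.9 and 65.0 CPM with serum and 59.7, 59.6, 63.0 and 58.1 without, a difference of -0.06 ± 0.07 (edgeR's adjusted p = 0.523). *MAP1LC3B*, the LC3 form most used as a marker of autophagosomes, was at 76.7, 81.5, 87.8 and 87.0 CPM with serum and 86.4, 81.5, 84.3 and 95.2 without. It was higher in WT1 and WT4, equal to 3 digits in WT2 and lower in WT3 (0.06 ± 0.07, edgeR's adjusted p = 0.579). *MAP1LC3A* was at 3.29, 4.44, 5.23 and 6.83 CPM with serum and 6.05, 6.54, 8.17 and 6.70 without. It was higher in WT1, WT2 and WT3 and slightly lower in WT4, and it passed in the blocked fit (0.50 ± 0.14, edgeR's adjusted p = 0.00952) but neither in the unblocked one (0.47 ± 0.21, adjusted p = 0.132) nor with GC content corrected for beside the block (0.27, adjusted p = 0.0809). *GABARAP* was at 0.318, 0.274, 0.351 and 0.211 CPM with serum and 0.237, 0.288, 0.283 and 0.355 without, which rests on 6 to 22 counts per library.

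The genes of the conjugation complex fell or did not pass. *ATG5* (ENSG00000057663, chr6:106184476-106325760) was at 19.9, 17.7, 17.6 and 15.6 CPM with serum and 11.2, 13.5, 13.1 and 10.2 without. Every serum-free library was below every serum library, and *ATG5* fell by 0.56 on the log2 scale (SE 0.12, edgeR's adjusted p = 0.00910), a call made in 11 of 12 leave-out fits. *ATG12*, the ubiquitin-like protein that is joined to ATG5, was at 43.9 to 71.0 CPM with serum and 35.1 to 47.4 without, ranges that overlapped. It fell by 0.52 on the log2 scale (SE 0.16, edgeR's adjusted p = 0.0414), and the call was made in 3 of 12 leave-out fits, all unblocked. With the block edgeR's adjusted p for *ATG12* was 2.40e-05. The ATG12 log2 fold change was -0.27 with the correction for GC content and no block (edgeR's adjusted p = 0.126, from a range of 2.40e-05 to 0.243 over the alternatives). *ATG16L1*, their partner, was at 46.0 to 59.6 CPM over all 8 libraries and did not pass (-0.05, edgeR's adjusted p = 0.746).

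*SQSTM1* was at 284, 272, 230 and 442 CPM with serum and 459, 413, 328 and 510 without. WT4 with serum was above WT2 and WT3 without, the differences within lines ran from 0.21 in WT4 to 0.69 in WT1 on the log2 scale, and the fitted value of 0.48 ± 0.21 did not pass (edgeR's adjusted p = 0.138). In the blocked fit *SQSTM1* rose by 0.50 ± 0.07 (edgeR's adjusted p = 3.99e-05). It shares 21.0% of its exon bases with *MRNIP* on the opposite strand. *ATG9A*, the scramblase of the vesicles that seed the membrane, was at 76.8, 83.5, 88.7 and 101 CPM with serum and 94.7, 95.1, 106 and 113 without. All 4 lines were higher without serum, and *ATG9A* passed in the blocked fit (0.23 ± 0.05, edgeR's adjusted p = 0.00328) but neither without the block (0.23 ± 0.10, adjusted p = 0.115) nor with GC content corrected for as well (0.07, adjusted p = 0.156).

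The class III PI3-kinase complex makes the PI3P that the WIPI proteins bind. Its core subunit *BECN1* lay between 52.5 and 56.4 CPM with serum and was at 54.2, 55.9, 59.4 and 62.2 CPM without. *BECN1* was higher in all 4 lines, by 0.01 in WT1 to 0.24 in WT4, and the fitted 0.10 ± 0.07 did not pass (edgeR's adjusted p = 0.281). With the block and the correction for GC content it rose by 0.17 (edgeR's adjusted p = 0.00575). *ATG14*, which directs the complex to autophagosomes, was at 18.4, 19.7, 21.7 and 15.3 CPM with serum and 19.6, 18.2, 22.0 and 20.8 without. The ranges of *ATG14* overlapped, and the difference was 0.10 ± 0.12 (edgeR's adjusted p = 0.571). *ATG14* shares 20.8% of its exon bases with *FBXO34* on the opposite strand. *UVRAG*, which takes the place of ATG14 in the complex of endosomes, rose by 0.21 ± 0.07 (edgeR's adjusted p = 0.0454), from 35.6 to 40.3 CPM to 42.2 to 46.4. The call was made in 1 of 12 leave-out fits, all unblocked, while edgeR's adjusted p with the block was 0.0152.

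The lines differed within the serum condition, and WT4 had the highest of the 4 serum values for 28 of the 53 genes (52.8%), against 34.0% of all tested genes. Among the hydrolases this held for 11 of 15. The median log2 difference of the 15 hydrolases, serum-free minus serum, was 0.47, 0.45, 0.35 and 0.26 for WT1 to WT4, beside 0.02 to 0.04 for all tested genes. For the 18 autophagosome genes it was 0.24, 0.17, 0.20 and 0.23, and for the 7 pump subunits it was between -0.12 and -0.04 in every line. Whether the lines differ in their response could not be tested with 1 library per line and condition.

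A further 175 genes of the same pathways were listed, of which 167 were tested, and 30 rose and 21 fell. The shares were 18.0% and 12.6%, where all tested genes gave 11.1% and 14.0%, and the median log2 fold change was 0.09. With the line as a block 58 rose and 30 fell, where 23.2% and 22.4% of all tested genes did. With upper-quartile scaling 43 rose and 10 fell, where 14.2% and 10.4% did.

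**Figure D4:**
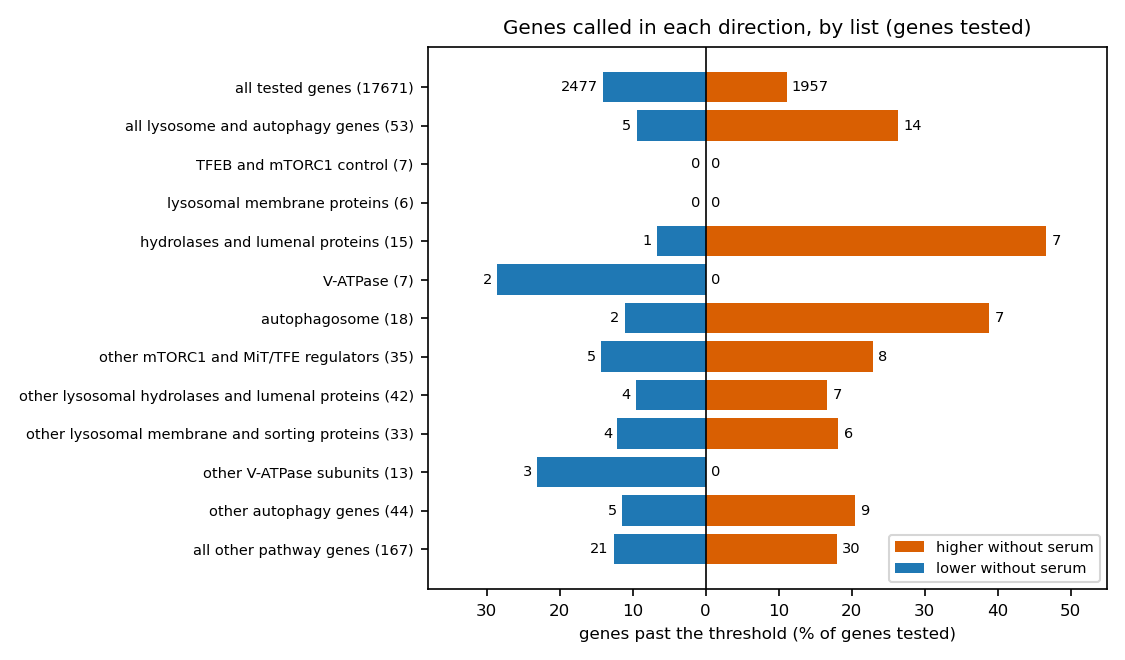
Percent of tested genes called higher (right) or lower (left) without serum in each list, with the number of genes at each bar and the number tested in brackets. Hydrolases (7 of 15) and autophagosome genes (7 of 18) reach furthest to the right, and both lists of V-ATPase subunits have falls and no rise.

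Of 35 other regulators of mTORC1 and of the MiT/TFE factors that were tested, 8 rose (22.9%, beside 11.1% of all tested genes) and 5 fell (14.3%, beside 14.0%). The balance turned with the block, where 9 rose and 10 fell (beside 23.2% and 22.4% of all tested genes), and with the correction for GC content, where 6 rose and 8 fell without the block (beside 13.2% and 13.5%) and 9 rose and 11 fell with it (beside 25.8% and 20.9%). *DEPTOR*, an inhibitory partner of mTOR, rose by 2.27 ± 0.21 on the log2 scale, from 2.68 ± 0.555 to 12.8 ± 3.07 CPM (SD, n = 4, edgeR's adjusted p = 8.28e-04). Genes of the sestrins, which restrain mTORC1 through the GATOR complexes, went both ways. *SESN3* rose by 1.66 ± 0.43, from a mean of 9.53 ± 2.80 CPM with serum (edgeR's adjusted p = 0.0275), and *SESN2* fell by 0.74 (SE 0.19, edgeR's adjusted p = 0.0208), from 28.0 ± 7.31 to 16.7 ± 3.09 CPM. Each of these 3 moved the same way in all 4 lines.

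Of 42 other hydrolases and lumenal proteins tested, 7 rose and 4 fell (16.7% and 9.52%, beside 11.1% and 14.0% of all tested genes), and with the block 17 rose and 4 fell (beside 23.2% and 22.4%). The 3 largest changes were rises in all 4 lines. The cysteine protease *CTSF* rose by 1.15 ± 0.13, from 19.1 ± 2.94 to 42.3 ± 5.12 CPM (edgeR's adjusted p = 9.96e-04), and *IDUA*, the iduronidase that degrades glycosaminoglycans, by 0.92 ± 0.19, from 8.18 ± 2.39 to 15.5 ± 2.02 CPM (edgeR's adjusted p = 0.00852). *CTSO* rose by 1.11 ± 0.32 at a low level, from a mean of 0.661 to 1.42 CPM (edgeR's adjusted p = 0.0318).

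Of 33 other membrane and sorting proteins tested, 6 rose and 4 fell (18.2% and 12.1%, beside 11.1% and 14.0% of all tested genes), and with the block 14 rose and 6 fell (beside 23.2% and 22.4%). The chloride-proton exchanger of the lysosome is built of CLCN7 and its partner OSTM1, and their genes moved apart. *CLCN7* rose by 0.65 ± 0.10, from 55.2 ± 7.10 to 86.4 ± 6.42 CPM (edgeR's adjusted p = 0.00243), and *OSTM1* fell by 0.60 (SE 0.11, edgeR's adjusted p = 0.00498), from 44.9 ± 6.10 to 29.7 ± 2.82 CPM. *SIDT2*, a lysosomal membrane protein linked to the uptake of nucleic acids, rose by 0.63 ± 0.17 (edgeR's adjusted p = 0.0239).

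Of 13 other V-ATPase subunits tested, 0 rose and 3 fell in edgeR's test (23.1% fell, beside 14.0% of all tested genes). At an unadjusted p under 0.05, 0 were higher. In all 4 lines 5 were lower and 0 higher (38.5% and 0.0%, beside 26.6% and 28.8% of all tested genes). With the block 0 rose and 4 fell (beside 23.2% and 22.4%). With GC content corrected for, 0 rose and 2 fell without the block (beside 13.2% and 13.5%), and 1 rose and 4 fell with it (beside 25.8% and 20.9%). Upper-quartile scaling gave 0 rises and 1 fall (beside 14.2% and 10.4%). The stalk subunit *ATP6V1E1* fell by 0.31 (SE 0.07, edgeR's adjusted p = 0.0147), from 87.4 ± 7.48 to 70.6 ± 2.86 CPM. *ATP6V0B*, of the proton-carrying ring, fell by 0.26 (SE 0.08, edgeR's adjusted p = 0.0381), and the stalk subunit *ATP6V1G1* by 0.25 (SE 0.08, edgeR's adjusted p = 0.0401).

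Of 44 other autophagy genes tested, 9 rose and 5 fell (20.5% and 11.4%, beside 11.1% and 14.0% of all tested genes), and with the block 18 rose and 6 fell (beside 23.2% and 22.4%). *WDR45*, which encodes the PI3P-binding protein WIPI4, rose from 50.5 ± 7.86 to 101 ± 11.1 CPM (edgeR's adjusted p = 0.00112). The cargo receptor *OPTN* rose by 0.90 ± 0.19, from 8.39 ± 1.94 to 15.7 ± 3.01 CPM (edgeR's adjusted p = 0.00879), and *TP53INP2*, a nuclear protein that binds LC3, by 0.90 ± 0.20, from 5.82 ± 1.14 to 10.9 ± 2.70 CPM (edgeR's adjusted p = 0.00998). The 3 were higher without serum in all 4 lines.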

How the data were processed

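RNA of 8 libraries, 4 A375 lines with and without serum, was depleted of ribosomal RNA and sequenced as paired reads. The authors deposited raw counts per gene as whole numbers, not normalized. The submitters' processing notes name GRCh38, cutadapt, TopHat2 2.0.11 and HTSeq for them, whereas the methods of the study name the older build hg19 for its alignment and do not mention HTSeq. The annotation release and strand setting are not given in the sources used here, so overlapping and antisense genes are uncertain. Rows that name no gene were left out: reads aligned to several places were 5.73% to 22.7% of each library's total and ambiguous reads 8.23% to 11.5%.

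Counts were analysed with edgeR 4.0.16 (R 4.3.3): filterByExpr, TMM scaling, a robust glmQLFit and glmQLFTest for serum-free against serum, then Benjamini-Hochberg adjustment over 17671 genes and a threshold of 0.05. The fit was tested on simulated data. CPM and RPKM are TMM-scaled, and log2 CPM of single libraries used a prior count of 2. Positions and promoters are from RefSeq (GRCh38.p14). GC content, exon lengths and shared exons are those of GENCODE genes lifted to GRCh37, not the build named in the notes, with GC content for 17425 of the tested genes.

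Same-numbered libraries come from the same line. Their deviations from the condition means correlated at 0.40 (WT1), 0.59 (WT2), 0.46 (WT3) and 0.60 (WT4), against -0.40 to 0.13 between lines, so the numbers pair the samples. No pair of libraries differed by as little as sampling noise. Alternatives were the line as a block, a correction for GC content, both, DESeq2 1.42.0, limma 3.58.1 (voom), RLE and upper-quartile scaling, other filters on low counts, protein-coding genes only, and each library and each line left out. A fit with WT3 and WT4 only was chosen after seeing the data. Neither it nor the leave-out fits held the block. A planned comparison of protein sequences was not run.

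The 53 genes and all lists were chosen with earlier results of these data known. Values per library were given for a fixed set of genes and for up to 4 called genes a role, those of smallest p, and from each of 5 lists of other pathway genes the 3 largest called changes with 1 direction in all 4 lines were named. *GLA* was the called hydrolase that fell, and its values per library, outside this rule, were chosen after they were seen. *MITF* was also named among the regulators outside this rule. The remaining genes are given by fold change, and some also by their range. The endothelial marker *PECAM1* could not be matched by symbol. Marker sums in CPM with and without serum, lowest to highest, were 38.5 to 46.8 and 33.1 to 37.8 for melanocyte markers, 523 to 865 and 347 to 815 for undifferentiated melanoma, 14.9 to 21.7 and 11.7 to 21.0 for keratinocytes or epithelium, 0.117 to 1.33 and 0.142 to 1.11 for endothelium and 0.0265 to 0.210 and 0.0533 to 0.275 for red blood cells.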

Additional observations from a re-analysis of the deposited data

Results flagged for a closer look

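Each group of 4 libraries was searched for 1 value far from the others, in all 53 genes and both conditions. Of 106 groups of 4 values, 5 held one, where chance alone flags about 1 in 20. With serum, *FNIP2* was at 23.8 CPM in WT3, with the other lines at 19.5 to 20.1. Without serum, WT4 stood above the other lines for *CTSB*, at 197 CPM against 132 to 142, and for *NAGLU*, at 29.9 CPM against 21.3 to 22.8. Without serum, WT3 stood below them for *GLA*, at 21.0 CPM against 26.4 to 27.4, and for *GABARAPL1*, at 28.6 CPM against 37.6 to 39.2.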

How the results depend on the processing

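Over all genes, 4434 were called, and 3904 to 5328 in the 8 unblocked alternatives that kept every library. With the replicate block 8067 were called, with the block and GC correction 8255, and with WT3 and WT4 only 14. Leaving out 1 library or 1 line gave 1589 to 6128. The 14 rises among the 53 genes became 25 with the replicate block, 27 with the block and GC correction, 0 with WT3 and WT4 only and 3 to 20 in the leave-out fits. The 5 falls became 8 with the block, 2 with GC correction alone, 0 with WT3 and WT4 only and 0 to 5 in the leave-out fits. Without both libraries of a line, rises and falls were 4 and 0 (WT1), 3 and 1 (WT2), 3 and 2 (WT3) and 19 and 5 (WT4), where 3.42% and 5.35%, 4.58% and 6.73%, 3.91% and 6.47%, and 14.3% and 17.4% of all tested genes rose and fell. Of 1218 fold changes under 23 alternatives, 983 kept their direction and side of the threshold, 125 lost and 59 gained a call, 48 changed sign without a call and 3 turned into a called value of the other sign. These were the FNIP1 log2 fold change of 0.18, the LAMP2 log2 fold change of 0.12 and the ATP6V1A log2 fold change of 0.12, all with the block and GC correction. The share of called genes that rose was 44.1% over all genes and 57.6% with upper-quartile scaling, and with the block 50.9% and, with GC correction added, 55.3%. Causes were not tested. *GABARAP* and *CLN3* had at most 22 and 71 counts in a library, which limits what can be said of them.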
